A study of Mus musculus with 22 samples.

Results

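The cathepsins are the proteases of the lysosome, and 10 of their genes were followed here in mouse liver, namely *Ctsa*, *Ctsb*, *Ctsc*, *Ctsd*, *Ctsf*, *Ctsh*, *Ctsk*, *Ctsl*, *Ctss* and *Ctsz*. They were taken by symbol from a count table of 55573 genes, and all 10 were among the 14062 genes with a mean of at least 10 counts per library that entered the tests. Polyadenylated RNA of 22 livers, each from a separate mouse, was sequenced in 4 groups: Cre controls fed chow (n = 6), liver-*Flcn*-/- animals fed chow (n = 5), Cre controls fed a methionine/choline deficient (MCD) diet (n = 5) and liver-*Flcn*-/- animals fed the MCD diet (n = 6). The MCD diet is used to produce fatty, inflamed and fibrotic livers. All mice were C57BL/6 and were 6 weeks old when the diets began, and the diets lasted 6 weeks. Read from *Xist* and Y-linked counts, each group held 3 females and 2 or 3 males. Cre mice carry wild-type *Flcn* and 1 Albumin-Cre transgene, while liver-*Flcn*-/- mice carry 2 floxed *Flcn* alleles with the same transgene, so every mouse expressed the recombinase. Albumin-Cre acts in hepatocytes, so the macrophages, stellate cells and endothelial cells in the same tissue kept *Flcn*. Between 13751347 and 21144388 reads were counted on genes per library, and levels are given as CPM, the counts of a gene scaled to the library size after TMM correction. In these bulk libraries, fewer cells of a type and less RNA per cell cannot be told apart, and the cell type that a cathepsin transcript came from was not measured.

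Cathepsins are made as inactive precursors in the endoplasmic reticulum, delivered to lysosomes largely through mannose 6-phosphate receptors and sortilin, and activated there at acidic pH. Folliculin, the product of *Flcn*, acts with the Rag GTPases to let mTORC1 keep the transcription factors TFEB and TFE3 in the cytoplasm. When free to enter the nucleus, these factors bind E-box sequences of the CLEAR type in front of many lysosomal genes. Hepatocytes hold many lysosomes, while cathepsins S and K are best known from antigen-presenting cells and from osteoclasts.

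Of the promoter windows in RefSeq (build GRCm38.p6, 250 bases before to 50 bases after a transcript start), 9 belonged to 8 of the cathepsins, and *Ctsb* and *Ctsh* were not searched. They were searched on both strands for CACGTG, its longer form TCACGTG (which contains it), TCATGTG, the related M-box of MiT-TFE factors, and GAGGAAGT, a site of the type bound by the myeloid factor PU.1. All matches are given here 5′ to 3′ on the strand of the gene, with the match in capitals. The PU.1 type matches of *Ctsc* and *Ctss* read as ACTTCCTC, the reverse complement of GAGGAAGT.
*Ctsa*, E-box, chr2:164833751-164833776, plus strand: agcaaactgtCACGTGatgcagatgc
*Ctsa*, E-box, chr2:164833768-164833793, plus strand: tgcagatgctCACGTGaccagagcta
*Ctsa*, M-box (as its reverse complement), chr2:164833784-164833810, plus strand: accagagctaCACATGActtccagtcc
*Ctsd*, E-box, chr7:142387910-142387935, minus strand: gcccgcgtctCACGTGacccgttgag
*Ctsd*, E-box, chr7:142388057-142388077, minus strand: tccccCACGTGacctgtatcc
*Ctsf*, E-box, chr19:4855076-4855101, plus strand: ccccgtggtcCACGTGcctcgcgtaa
*Ctsl*, E-box, chr13:64370741-64370766, minus strand: cgttagaagcCACGTGctgatctaaa
*Ctss*, M-box, chr3:95526794-95526820, plus strand: tgtggatgctTCATGTGacaagctccg
*Ctss*, PU.1 type, chr3:95526774-95526801, plus strand: atgaaagttcACTTCCTCattgtggatg
*Ctsc*, PU.1 type, chr7:88277924-88277951, plus strand: tcactaactaACTTCCTCaggccacctc

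CACGTG occurred in 4 of the 9 windows, against 7.15% of all 32851 promoters, and TCACGTG in 2, those of *Ctsa* and *Ctsd*, against 3.77%. Of 22 other lysosomal hydrolase genes with a window, 5 (22.7%) held CACGTG and 5 held TCACGTG. GAGGAAGT occurred in *Ctsc* and *Ctss* (3.2% of all promoters) and TCATGTG in *Ctsa* and *Ctss* (3.77%). The *Ctsa* window with the matches is the second of a pair of RefSeq starts and lies inside the gene as GENCODE draws it, as does that of *Ctsl*. None of these letters was found in the windows of *Ctsz* and *Ctsk*. A match of letters shows no binding, and the values below are set beside these sequences as a description.

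On GRCm38 (GENCODE M21) the plus strand carries *Ctsa* at chr2:164832873-164841032, *Ctsb* at chr14:63122462-63145923, *Ctsc* at chr7:88278085-88310888, *Ctsf* at chr19:4855130-4860918, *Ctsh* at chr9:90054152-90076089, *Ctsk* at chr3:95499256-95509362 and *Ctss* at chr3:95526786-95556403. The minus strand carries *Ctsd* at chr7:142375911-142388038, *Ctsl* at chr13:64359337-64370890 and *Ctsz* at chr2:174427493-174439039. *Ctsk* and *Ctss* are neighbours, and each of the other 8 lies apart from the rest.

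*Flcn* itself had 26.1, 31.8 and 40.2 CPM as the lowest, median and highest value in Cre mice on chow, and the 5 liver-*Flcn*-/- livers had 24.2, 20.0, 16.7, 19.4 and 21.8 CPM. Every liver-*Flcn*-/- mouse on chow was below every Cre mouse, a log2 fold change of -0.63 (SE 0.173, edgeR adjusted p = 0.0249). On MCD the 5 Cre mice had 31.7, 18.2, 39.9, 32.5 and 23.6 CPM, and liver-*Flcn*-/- mice had a lowest, median and highest value of 17.6, 26.6 and 32.6 CPM. These groups overlapped, with a log2 fold change of -0.16 (SE 0.17, adjusted p = 0.567), and without 5 chow libraries of low uniquely mapped share, described with *Ctsc*, the difference on chow did not pass either (adjusted p = 0.244), nor did it without Cre chow mouse 6 or without liver-*Flcn*-/- chow mouse 3 or 4 (adjusted p = 0.0567, 0.0663 and 0.0679) or with the replicate number as a block (adjusted p = 0.0528). The paper describes the deletion as removal of a single *Flcn* exon, while the counts cover the whole gene. They also hold *Flcn* RNA of cells that Albumin-Cre does not reach, so they check the deletion only in part. The paper examined hepatic FLCN protein by western blot, which these counts do not measure.

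Each cathepsin was tested for 2 effects, that of genotype (liver-*Flcn*-/- against Cre, as the mean over both diets) and that of diet (MCD against chow, as the mean over both genotypes), in 1 edgeR fit of all 4 groups with an adjusted p threshold of 0.05 over all 14062 genes. *Ctsa*, *Ctsb*, *Ctsf*, *Ctsl* and *Ctsz* were higher in liver-*Flcn*-/- livers and *Ctsh* was lower, which is 5 of 10 higher against 8.36% of all tested genes and 1 of 10 lower against 6.15% (14.5% in either direction). *Ctsa*, *Ctsb*, *Ctsd*, *Ctsk*, *Ctsl*, *Ctss* and *Ctsz* rose with MCD and *Ctsc* fell, which is 7 of 10 against 32.7% of all genes and 1 of 10 against 31.6% (64.3% in either direction). Thus 2 cathepsins (*Ctsf* and *Ctsh*) passed for genotype alone, 4 (*Ctsc*, *Ctsd*, *Ctsk* and *Ctss*) for diet alone and 4 (*Ctsa*, *Ctsb*, *Ctsl* and *Ctsz*) for both. The median log2 fold change of the 10 cathepsins was 0.32 for genotype and 0.59 for diet, beside -0.02 and 0.02 for all genes. These counts were the same without the 5 chow libraries of low uniquely mapped share and a further MCD library, but *Ctsh* is the least certain member, since its genotype call was lost in 18 of 31 alternative analyses.

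**Figure D1:**
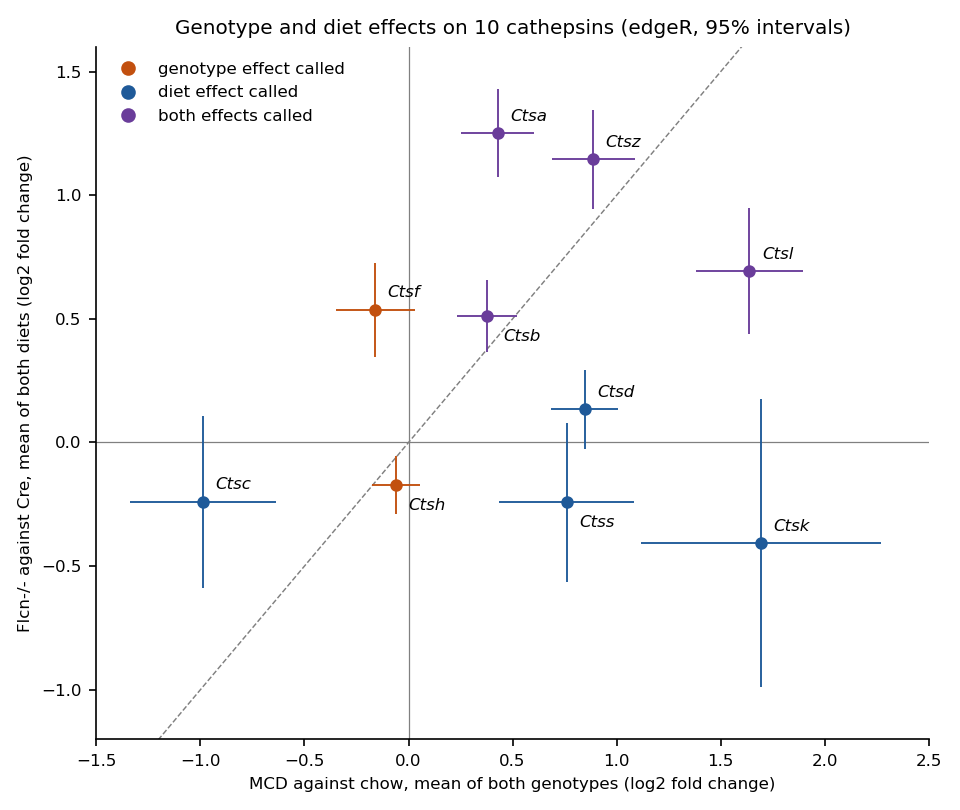
Log2 fold change of each cathepsin for diet (horizontal axis, mean of both genotypes) and for genotype (vertical axis, mean of both diets), with 95% intervals from edgeR and colours for the effects that passed an adjusted p of 0.05. *Ctsa* and *Ctsz* are highest on the genotype axis (1.25 and 1.15), *Ctsk* and *Ctsl* lie farthest to the right (1.69 and 1.64), and the dashed line marks equal effects.

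A direct test took the genotype effect minus the diet effect, which in this design equals liver-*Flcn*-/- mice on chow against Cre mice on MCD. It passed as positive for 3 of 10 cathepsins and as negative for 4. These counts were near the shares of all genes (25.5% positive and 26.1% negative, 51.6% in all). It was positive for *Ctsa* (0.82, SE 0.125, adjusted p = 1.54e-05), *Ctsf* (0.70, SE 0.135, adjusted p = 0.000227) and *Ctsc* (0.75, SE 0.249, adjusted p = 0.016), the last with a genotype effect of -0.24 and a diet effect of -0.99. It was negative for *Ctsk* (-2.10, SE 0.405, adjusted p = 0.000203), *Ctss* (-1.0, SE 0.23, adjusted p = 0.00108), *Ctsl* (-0.95, SE 0.181, adjusted p = 0.000195) and *Ctsd* (-0.71, SE 0.114, adjusted p = 2.92e-05). For *Ctsb*, *Ctsz* and *Ctsh* the effects could not be ranked, with 95% intervals of the difference from -0.08 to 0.35, -0.03 to 0.55 and -0.28 to 0.06. Without liver-*Flcn*-/- chow mouse 2 the difference for *Ctsc* was 0.59 (adjusted p = 0.0614) and that for *Ctsz* 0.35 (adjusted p = 0.0373), and without Cre MCD mouse 5 that for *Ctsz* was 0.39 (adjusted p = 0.0202).

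On chow, 3 of 10 cathepsins were higher in liver-*Flcn*-/- livers than in Cre livers against 5.52% of all tested genes, and 1 was lower against 3.1% (8.62% in either direction). On MCD, 5 were higher against 8.06% and 1 was lower against 8.53% (16.6% in either direction). Groups did not overlap for *Ctsa*, *Ctsb* and *Ctsz* on chow (6.94% of all genes did not overlap) and for *Ctsa*, *Ctsb*, *Ctsf*, *Ctsl* and *Ctsz* on MCD (8.61%), with the liver-*Flcn*-/- mice above in each case.

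*Ctsa* encodes protective protein/cathepsin A, a serine carboxypeptidase that also stabilizes the lysosomal enzymes NEU1 and GLB1. On chow it had a lowest, median and highest value of 128, 152 and 165 CPM in Cre mice, while the 5 liver-*Flcn*-/- livers had 418, 248, 330, 375 and 304 CPM. The lowest liver-*Flcn*-/- mouse was well above the highest Cre mouse, a 2.23-fold difference of the means and a log2 fold change of 1.15 (SE 0.119, adjusted p = 1.14e-06). On MCD the Cre mice had 176, 193, 158, 205 and 214 CPM, whereas liver-*Flcn*-/- livers had 391, 485 and 548 CPM as the lowest, median and highest value. Again no mouse of a group reached the other, a log2 fold change of 1.35 (SE 0.123, adjusted p = 2.52e-07). In each diet the exact permutation p was 0.00433, the smallest that 6 mice against 5 allow. The diet moved *Ctsa* less, by 0.33 in Cre mice (adjusted p = 0.0213) and 0.53 in liver-*Flcn*-/- mice (adjusted p = 0.00118), with overlapping groups. The former did not pass without Cre chow mouse 4, Cre MCD mouse 4 or Cre MCD mouse 5 (adjusted p = 0.0507, 0.0522 and 0.0525).

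*Ctsz* encodes cathepsin Z (also called X), a cysteine carboxypeptidase, and had the other of the 2 largest genotype effects. Cre mice on chow lay in a narrow range, from 198 to 232 CPM with a median of 204 CPM, while liver-*Flcn*-/- livers on chow had 619, 349, 501, 514 and 409 CPM. On MCD the Cre mice had 366, 400, 303, 404 and 525 CPM, whereas liver-*Flcn*-/- livers had 679, 877 and 940 CPM as the lowest, median and highest value. Genotype groups were apart on both diets, and diet moved *Ctsz* in the same direction by a similar amount. The log2 fold changes were 1.20 for genotype on chow (SE 0.135, adjusted p = 3.43e-06), 1.09 for genotype on MCD (SE 0.138, adjusted p = 1.38e-05), 0.94 for diet in Cre mice (adjusted p = 4.95e-06) and 0.83 for diet in liver-*Flcn*-/- mice (adjusted p = 4.28e-05). The interaction of genotype and diet was -0.11 (95% interval -0.50 to 0.29). *Ctsa* and *Ctsz* also varied together between mice of a group (r = 0.88 of log2 CPM over the 22 libraries after removing group means).

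*Ctsb*, a cysteine endopeptidase and dipeptidyl carboxypeptidase abundant in liver lysosomes, showed the same order of groups with smaller steps. Its lowest, median and highest values were 634, 806 and 961 CPM in Cre mice on chow, whereas liver-*Flcn*-/- livers on chow had 1211, 997, 1063, 1095 and 1178 CPM. On MCD the Cre mice had 1009, 1001, 973, 1137 and 935 CPM, and liver-*Flcn*-/- mice had 1314, 1509 and 1586 CPM as the lowest, median and highest value. The genotypes were apart on both diets, and the nearest mice on chow were at 961 and 997 CPM. Log2 fold changes were 0.47 for genotype on chow (SE 0.099, adjusted p = 0.00378) and 0.55 on MCD (SE 0.1, adjusted p = 0.000751). For diet they were 0.34 in Cre mice (adjusted p = 0.00601), whose groups overlapped, and 0.42 in liver-*Flcn*-/- mice (adjusted p = 0.00178), whose groups did not. Without the 5 chow libraries of low uniquely mapped share, neither the difference on chow (0.31, adjusted p = 0.186) nor the diet effect in Cre mice (0.20, adjusted p = 0.124) passed.

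*Ctsf*, a cysteine endopeptidase with a long propeptide that contains a cystatin-like part, was higher in liver-*Flcn*-/- livers on MCD. Cre mice on chow had 21.7, 26.5 and 28.4 CPM as the lowest, median and highest value, and liver-*Flcn*-/- mice on chow had 36.7, 30.5, 30.4, 42.6 and 26.7 CPM. These groups overlapped, and a log2 fold change of 0.39 (adjusted p = 0.0633) missed the threshold, which it passed under DESeq2 (adjusted p = 0.0419) and without Cre MCD mouse 5, liver-*Flcn*-/- chow mouse 5 or liver-*Flcn*-/- MCD mouse 5 (adjusted p = 0.0466, 0.0388 and 0.0476). On MCD the Cre mice had 19.3, 22.1, 16.9, 21.2 and 23.5 CPM and liver-*Flcn*-/- mice had 24.9, 33.8 and 38.4 CPM as the lowest, median and highest value. No liver-*Flcn*-/- mouse was as low as a Cre mouse there, with a log2 fold change of 0.68 (SE 0.13, adjusted p = 0.00108). The interaction was 0.29 (adjusted p = 0.35), so the genotype effects on the 2 diets were not shown to differ. Within groups, *Ctsf* varied with *Ctsa* (r = 0.82) and *Ctsz* (r = 0.70) over the 22 libraries. Its small fall with diet in Cre mice (-0.31, adjusted p = 0.0495) was lost in 24 of 32 alternatives, and in liver-*Flcn*-/- mice the diet effect was -0.01 (95% interval -0.28 to 0.25).

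*Ctsl*, a cysteine endopeptidase of broad specificity, had the largest diet effect of the 10 in liver-*Flcn*-/- livers and a genotype effect on MCD. Cre mice on chow had 796, 1168 and 1301 CPM as the lowest, median and highest value, and liver-*Flcn*-/- mice on chow had 1456, 1151, 1221, 2049 and 1720 CPM. On MCD the 5 Cre mice had 2614, 4276, 2201, 2254 and 3282 CPM, and liver-*Flcn*-/- mice had 5078, 5640 and 6527 CPM as the lowest, median and highest value. The genotypes overlapped on chow and were apart on MCD, and each MCD group was wholly above its chow group. The diet raised *Ctsl* by a log2 fold change of 1.38 in Cre mice (SE 0.173, adjusted p = 8.71e-07) and 1.90 in liver-*Flcn*-/- mice (SE 0.181, adjusted p = 4.77e-08). Genotype added 0.95 on MCD (SE 0.175, adjusted p = 0.000826), while on chow the difference of 0.44 did not pass (95% interval 0.08 to 0.79, adjusted p = 0.119). The interaction was 0.52 (95% interval 0.01 to 1.02, adjusted p = 0.195), so the genotype effects on the 2 diets were not shown to differ. Without Cre MCD mouse 2, the highest of its group, the interaction was 0.69 (adjusted p = 0.0498).

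**Figure D2:**
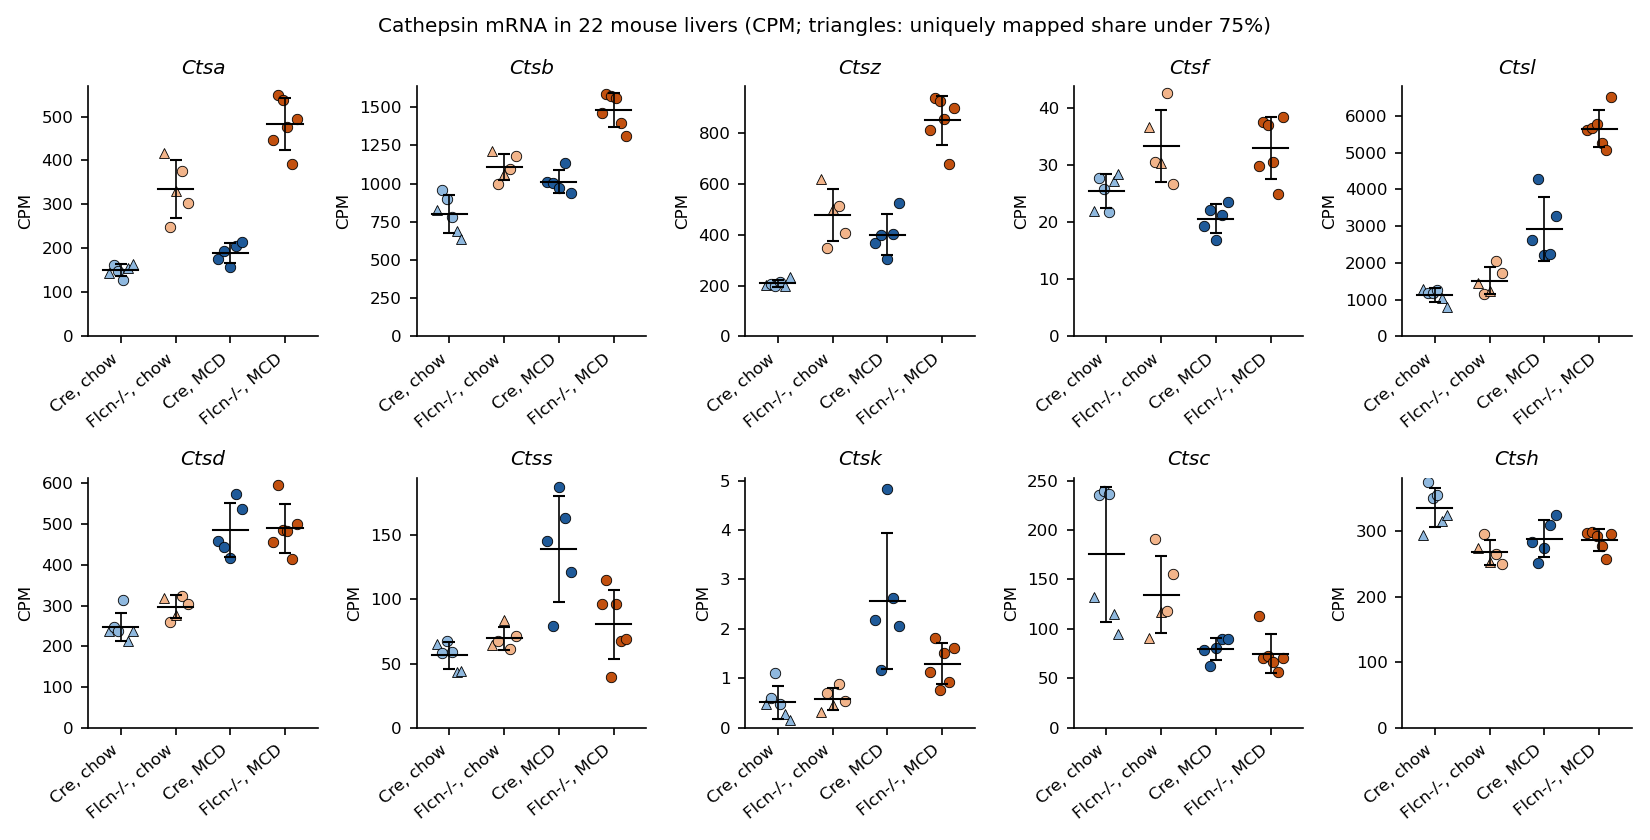
CPM of the 10 cathepsins in each of the 22 livers (1 point per mouse, linear axes from 0), with the mean and SD of each group as black lines and the 5 chow libraries of low uniquely mapped share as triangles. *Ctsa* and *Ctsz* step up with genotype in both diets, *Ctsd* steps up with diet alone, *Ctsl* is highest in liver-*Flcn*-/- mice on MCD (5078 to 6527 CPM), and *Ctss* and *Ctsk* are highest in Cre mice on MCD.

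The diet comparisons touched most cathepsins. In Cre mice 7 of 10 rose with MCD against 29.3% of all tested genes and 3 fell against 28.2% (57.5% in either direction). In liver-*Flcn*-/- mice 6 rose and 1 fell, against 22.5% of all genes in each direction (45.0% in all). The groups did not overlap for 6 cathepsins in Cre mice (32.5% of all genes) and for 4 in liver-*Flcn*-/- mice (29.2%).

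*Ctsd*, the aspartic protease cathepsin D, followed diet without a called genotype effect. On chow Cre mice had 213, 238 and 313 CPM as the lowest, median and highest value and liver-*Flcn*-/- livers had 320, 260, 277, 324 and 305 CPM. On MCD Cre mice had 459, 444, 418, 573 and 537 CPM, and liver-*Flcn*-/- mice had 414, 485 and 595 CPM as the lowest, median and highest value. The MCD groups were above both chow groups and overlapped each other almost completely, with means of 486 and 490 CPM. Diet effects were 0.97 in Cre mice (SE 0.109, adjusted p = 1.96e-07) and 0.72 in liver-*Flcn*-/- mice (SE 0.11, adjusted p = 1.95e-05), and the genotype difference on MCD was 0.01 (95% interval -0.22 to 0.24). On chow it was 0.26 (adjusted p = 0.144) and, without Cre chow mouse 4, 0.34 (adjusted p = 0.0477). *Ctsd* and *Ctsa* both hold a pair of the longer E-boxes shown above, and their genotype effects were 0.13 (not called) and 1.25. *Ctsf* and *Ctsl*, with the shorter CACGTG, had called genotype effects. Of the windows without CACGTG, that of *Ctsz* went with a called effect (1.15), and those of *Ctsc*, *Ctsk* and *Ctss* did not. The part of these sequences in the effects was not tested.

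*Ctss*, a cysteine endopeptidase that trims the invariant chain of MHC class II in antigen-presenting cells, rose with the diet in Cre mice. On chow the lowest, median and highest values were 43.2, 58.4 and 67.9 CPM in Cre mice, and liver-*Flcn*-/- livers were at 64.1, 67.4, 84.0, 61.1 and 71.4 CPM. On MCD the Cre mice had 145, 79.3, 187, 163 and 121 CPM, while liver-*Flcn*-/- mice had 39.9, 82.7 and 115 CPM as the lowest, median and highest value. In Cre mice the MCD group was wholly above the chow group, whereas in liver-*Flcn*-/- mice the diets overlapped. The genotype difference on chow was 0.31 (95% interval -0.15 to 0.76, adjusted p = 0.425). The diet effect was 1.31 in Cre mice (SE 0.219, adjusted p = 3.42e-05) and 0.21 in liver-*Flcn*-/- mice (95% interval -0.24 to 0.67, adjusted p = 0.451). *Ctss* was the 1 cathepsin of 10 with a called interaction (-1.09, SE 0.309, adjusted p = 0.0303), against 5.54% of all genes called negative and 3.29% positive (8.83% in all). The interactions of *Ctsa* (0.19), *Ctsb* (0.08), *Ctsc* (0.29) and *Ctsd* (-0.25) did not pass. On MCD *Ctss* was lower in liver-*Flcn*-/- mice by a log2 fold change of -0.79 (SE 0.218, adjusted p = 0.0152), with overlapping groups. The interaction did not pass without the 5 chow libraries of low uniquely mapped share (-0.90, adjusted p = 0.178) or without any 1 of 7 mice (Cre chow 5, Cre MCD 1, 3 and 4, liver-*Flcn*-/- chow 3 and 5 and liver-*Flcn*-/- MCD 6), with adjusted p values of 0.0503 to 0.0585. The difference on MCD did not pass when the 2 MCD groups were fitted alone (adjusted p = 0.0584), and with the replicate number as a block neither that difference (adjusted p = 0.0531) nor the interaction (adjusted p = 0.103) passed.

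*Ctsk*, the collagen-degrading cathepsin K of osteoclasts and some fibroblasts, lies 17423 bases from *Ctss* on chromosome 3 and was near the limit of these counts, at 2 to 103 reads per library. Cre mice on chow had 0.161, 0.481 and 1.11 CPM as the lowest, median and highest value, and on MCD they had 2.18, 1.16, 4.83, 2.62 and 2.05 CPM. Liver-*Flcn*-/- mice had 0.311, 0.713, 0.47, 0.882 and 0.539 CPM on chow and 0.757, 1.33 and 1.81 CPM as the lowest, median and highest value on MCD. Cre mice on MCD stood above Cre mice on chow without overlap, while the groups of liver-*Flcn*-/- mice overlapped. The diet effect was 2.26 in Cre mice (SE 0.388, adjusted p = 4.32e-05) and 1.13 in liver-*Flcn*-/- mice (SE 0.398, adjusted p = 0.0251). The latter did not pass without the 5 chow libraries (0.87, adjusted p = 0.11) or without liver-*Flcn*-/- chow mouse 1, 3 or 5 or liver-*Flcn*-/- MCD mouse 2 (adjusted p = 0.0618, 0.0545, 0.052 and 0.0559). On chow the genotype difference was 0.16 (95% interval -0.74 to 1.06), and that on MCD, -0.98, did not pass (adjusted p = 0.0601), and neither did the interaction of -1.14 (adjusted p = 0.214). The difference on MCD passed under DESeq2 (adjusted p = 0.0436), without the 5 chow libraries (adjusted p = 0.041) and without Cre chow mouse 3 or 6, Cre MCD mouse 2 or liver-*Flcn*-/- MCD mouse 2 (adjusted p = 0.0429, 0.0468, 0.0224 and 0.0496). Mouse 3 was the highest of the Cre mice on MCD, and without it the diet effect was 1.90 and the difference on MCD -0.62.

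*Ctsc*, the dipeptidyl peptidase that activates granule serine proteases of leukocytes, was the cathepsin that fell with the diet in both genotypes. Its chow values were split by library: the 3 Cre chow libraries with a uniquely mapped share under 75% had 132.5, 115 and 94.5 CPM and the other 3 had 235, 239 and 236 CPM. The uniquely mapped share is the percentage of reads that the aligner placed at 1 position, and it was under 75% in Cre chow mice 1, 5 and 6, in liver-*Flcn*-/- chow mice 1 and 3 and in none of 11 MCD libraries. In liver-*Flcn*-/- chow mice 1 and 3 *Ctsc* had 90.9 and 117 CPM, against 191, 118 and 155 CPM in the other 3. On MCD Cre mice had 78.4, 62.5, 80.4, 89.5 and 89.5 CPM and liver-*Flcn*-/- mice had 56.2, 70.3 and 113 CPM as the lowest, median and highest value. The diet effect was -1.13 in Cre mice (SE 0.243, adjusted p = 0.000457) and -0.84 in liver-*Flcn*-/- mice (SE 0.237, adjusted p = 0.00598), and without the 5 libraries it was -1.56 (adjusted p = 2.97e-06) and -1.05 (adjusted p = 0.000154). What lowered *Ctsc* in those libraries was not tested. Genotype differences of -0.38 on chow and -0.10 on MCD did not pass.

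*Ctsh*, an aminopeptidase, moved least. On chow Cre mice had 295, 338 and 376 CPM as the lowest, median and highest value and liver-*Flcn*-/- livers had 275, 295, 253, 266 and 250 CPM, which overlapped by 1 mouse of each group, both at 295 CPM. On MCD the means were 289 CPM in Cre mice and 287 CPM in liver-*Flcn*-/- mice. The genotype difference was -0.33 on chow (SE 0.0804, adjusted p = 0.0121) and -0.01 on MCD (95% interval -0.18 to 0.15), and the interaction of 0.32 did not pass (adjusted p = 0.0822). The call on chow was lost without a low count filter (adjusted p = 0.0873). The diet effect of -0.22 in Cre mice (adjusted p = 0.024) was lost in 7 of 32 alternatives, and that in liver-*Flcn*-/- mice was 0.10 and did not pass.

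To compare levels of different cathepsins, CPM were divided by the kilobases of exon of each gene. This length is the union of the exons of all its annotated transcripts, 6489 bases for *Ctsl* and 1441 bases for *Ctsz*. It can exceed the length of the transcripts present, which was not measured, so the order, sums and shares below depend on it. In Cre mice on chow the order of mean levels was *Ctsl* (173 CPM per kb), *Ctsz* (144.5), *Ctsb* (132), *Ctsd* (106), *Ctsh* (74.8), *Ctss* (41.5), *Ctsa* (31.9), *Ctsc* (30.2), *Ctsf* (5.05) and *Ctsk* (0.343). Ranges overlapped between neighbours from *Ctsl* to *Ctsd* and from *Ctss* to *Ctsc*, while *Ctsd* and *Ctsh*, *Ctsh* and *Ctss*, *Ctsc* and *Ctsf*, and *Ctsf* and *Ctsk* did not overlap. In liver-*Flcn*-/- mice on MCD *Ctsl* (871 CPM per kb) stood above *Ctsz* (591) and *Ctsz* above *Ctsb* (245) with no overlap of their ranges. The level summed over the 10 genes on chow was 739 ± 65.4 CPM per kb (SD, n = 6) in Cre and 1088 ± 128 (SD, n = 5) in liver-*Flcn*-/- mice, and on MCD it was 1329 ± 145 (SD, n = 5) and 2161 ± 169 (SD, n = 6). *Ctsl* made up 23.4% of that sum in Cre mice fed chow, 33.9% in those fed MCD and 40.3% in liver-*Flcn*-/- mice on MCD. In liver-*Flcn*-/- mice fed chow it made up 21.5% and *Ctsz* came first with 30.5%, with overlapping ranges. Before division by length, the means there were 1519 CPM for *Ctsl* and 478 CPM for *Ctsz*, so this order rests on the lengths used. The share of *Ctsc* was 4.09% in Cre mice fed chow, 2.13% in liver-*Flcn*-/- mice fed chow, and 1.04% and 0.596% on MCD.

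**Figure D3:**
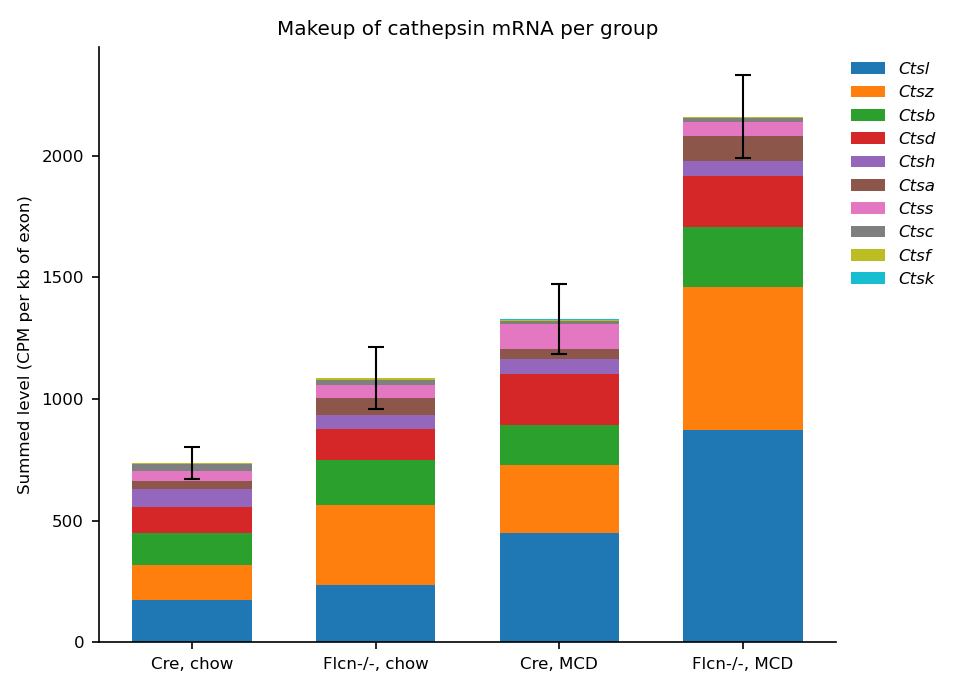
Mean level of each cathepsin (CPM per kilobase of exon) stacked for each of the 4 groups, with error bars for the SD of the sum over mice (n = 5 or 6). The sum goes from 739 in Cre mice on chow to 2161 in liver-*Flcn*-/- mice on MCD, and *Ctsl* and *Ctsz* fill most of the added height.

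In Cre mice macrophage markers moved with MCD beside *Ctss*. Of 12 macrophage markers, 8 rose with MCD in Cre mice and none fell, 2 rose and 2 fell with MCD in liver-*Flcn*-/- mice, and 6 were lower in liver-*Flcn*-/- than in Cre mice on MCD with none higher. The interaction was called negative for 4 of the 12 and positive for none. The shares of all genes were 29.3% up for diet in Cre mice, 22.5% in each direction for diet in liver-*Flcn*-/- mice and 8.53% down for genotype on MCD. For the interaction the shares of all genes were 5.54% negative and 3.29% positive, beside those of the 12 markers. Their median log2 fold change was 0.85 for diet in Cre mice and -0.68 for genotype on MCD, beside 0.01 and -0.01 for all genes. Their summed level in Cre mice was 272 ± 43.8 CPM (SD, n = 6) on chow and 496 ± 94.8 (SD, n = 5) on MCD, and in liver-*Flcn*-/- mice it was 319 ± 34.8 (SD, n = 5) and 313 ± 92.2 (SD, n = 6). The most abundant was *Lyz2* (lysozyme), with 179 CPM in Cre mice on MCD and 98.4 CPM in liver-*Flcn*-/- mice on MCD, and none of the 12 was at 0. Within groups, *Ctss* went with the macrophage markers (r = 0.79 over the 22 libraries, which share their depth and scaling), and *Ctsb* (r = 0.53), *Ctsc* (r = 0.50), *Ctsk* (r = 0.49), *Ctsh* (r = 0.48) and *Ctsd* (r = 0.48) went with them less closely. These lower values were not particular to macrophages: *Ctsk* reached r = 0.70 with dendritic cell, 0.61 with T and NK cell, 0.58 with monocyte-derived macrophage and 0.56 with stellate cell markers, *Ctsc* 0.61 with dendritic cell, *Ctsb* 0.57 with T and NK cell and *Ctsd* 0.50 with Kupffer cell markers. The values were near 0 or negative for *Ctsz* (r = 0.05), *Ctsa* (r = 0.04), *Ctsf* (r = -0.07) and *Ctsl* (r = -0.16), although with the Kupffer cell markers, the resident macrophages, *Ctsz* was at r = 0.48, *Ctsa* at 0.34 and *Ctsf* at 0.25. Cre MCD mouse 2 was the lowest of its group for *Ctss* (79.3 CPM) and for the markers (376 CPM) and had the highest *Ctsl* of its group. Liver-*Flcn*-/- MCD mouse 3 was the lowest of its group for both *Ctss* (39.9 CPM) and the markers (206 CPM). The part of these markers in the *Ctss* and *Ctsk* results was not tested.

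**Figure D4:**
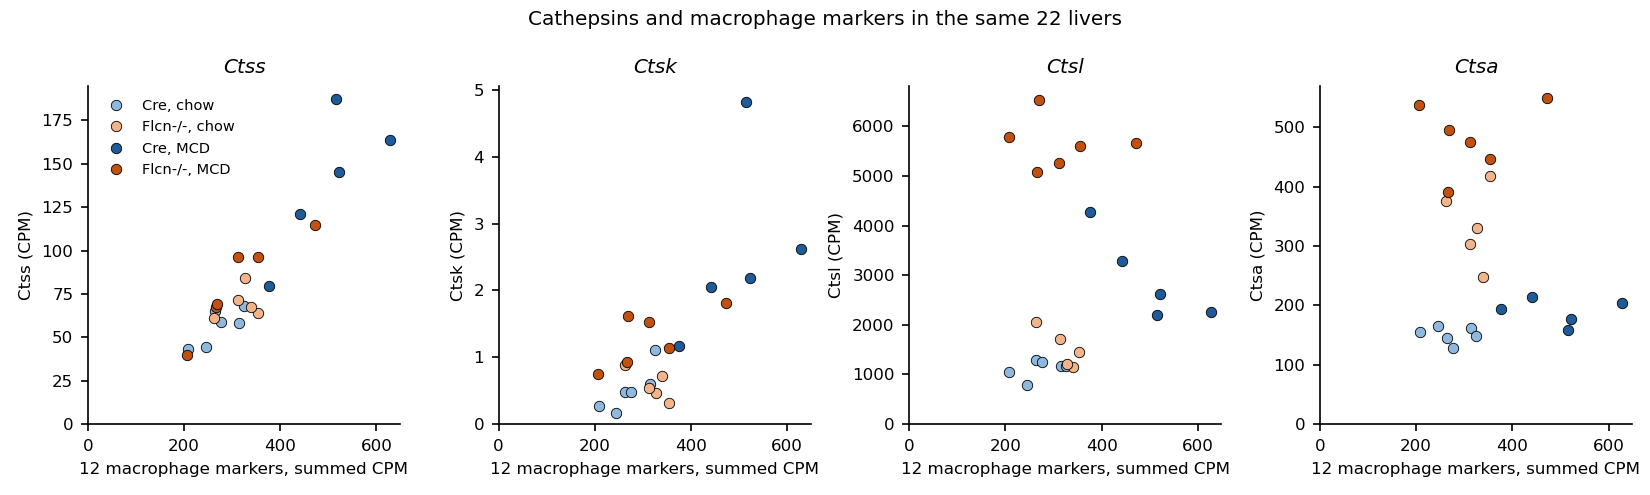
CPM of *Ctss*, *Ctsk*, *Ctsl* and *Ctsa* (vertical axes) against the summed CPM of 12 macrophage markers (horizontal axes), 1 point per liver and 1 colour per group. *Ctss* goes up with the markers, while *Ctsl* and *Ctsa* are highest in liver-*Flcn*-/- mice on MCD at marker sums of 206 to 472 CPM, against 376 to 628 CPM in Cre mice on MCD.

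Counts for other cell types stand beside the share of all genes called for diet, 29.3% up and 28.2% down in Cre mice and 22.5% in each direction in liver-*Flcn*-/- mice. All 7 markers of monocyte-derived macrophages, among them *Lgals3* and *Trem2*, rose with MCD in Cre mice and 4 rose in liver-*Flcn*-/- mice, with summed levels of 27.5, 169, 46.3 and 96.3 CPM in Cre chow, Cre MCD, liver-*Flcn*-/- chow and liver-*Flcn*-/- MCD mice. For genotype, 3 of them (*Cd9*, *Cx3cr1* and *Trem2*) were higher on chow and 3 were lower on MCD (5.52% and 8.53% of all genes). The interaction was called negative for 5 of them and positive for none (5.54% and 3.29% of all genes). Of 7 Kupffer cell markers, led by *Cd5l*, 1 was higher and 4 were lower on MCD than on chow in Cre mice. In liver-*Flcn*-/- mice 3 of them fell with MCD (*Clec4f*, *Folr2* and *Timd4*), and on MCD 2 (*Cd163* and *Timd4*) were higher in liver-*Flcn*-/- than in Cre mice, against 8.06% of all genes. Of 7 stellate cell markers, led by the proteoglycan gene *Dcn*, 6 rose with MCD in Cre mice and 5 were lower in liver-*Flcn*-/- than in Cre mice on MCD (8.53% of all genes). With MCD *Dcn* rose and *Col3a1* fell in liver-*Flcn*-/- mice. Cre MCD mouse 3 was the highest of all livers for *Des* (146 CPM) and *Acta2* (15.8 CPM), and also for the skeletal muscle markers described below. The stellate counts above include both genes and this mouse, and the cells these transcripts came from were not measured. All 5 neutrophil markers rose with MCD in Cre mice and 4 rose in liver-*Flcn*-/- mice, while of 5 dendritic cell markers 2 rose and 1 fell in Cre mice, and 1 fell in liver-*Flcn*-/- mice. Of 4 tested T and NK cell markers none passed for diet in Cre mice and all 4 fell with MCD in liver-*Flcn*-/- mice. Levels were low: the 7 listed summed to 3.55 CPM on chow and 4.23 CPM on MCD in Cre mice. In liver-*Flcn*-/- mice the sums were 6.93 CPM on chow and 3.27 CPM on MCD. Of 5 endothelial markers, Cre mice had 1 higher and 2 lower on MCD, and 3 fell in liver-*Flcn*-/- mice, and *Stab2* was higher in liver-*Flcn*-/- mice on both diets. Of 4 bile duct markers *Epcam* and *Krt7* rose with MCD in Cre mice and none passed for diet in liver-*Flcn*-/- mice. Hepatocyte markers fell with MCD, 5 of 6 in Cre mice and 4 of 6 in liver-*Flcn*-/- mice. The 7 skeletal muscle markers summed to 2313 CPM in Cre MCD mouse 3, against at most 113 CPM in any other liver, and that mouse also had the highest *Ctss* and *Ctsk* (187 and 4.83 CPM). Without it *Ctss* on MCD differed between genotypes by -0.66 (adjusted p = 0.0469).

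Over all 22 libraries, the 3 tested genes whose log2 CPM was most like that of *Ctss* were *Itgb2*, *C3ar1* and *Arhgap30* (r = 0.96, 0.96 and 0.95), of which *Itgb2* encodes the leukocyte integrin chain beta 2 and *C3ar1* the receptor of complement C3a. Those most like *Ctsa* were *Mroh1*, *Renbp* and *Plekhg5* (r = 0.98, 0.98 and 0.97), and those most like *Ctsz* were *Bex2*, *Cln6* and *Gm2990* (r = 0.98, 0.98 and 0.97). *Cln6*, which encodes an endoplasmic reticulum protein that helps newly made lysosomal enzymes leave that compartment, is itself on the list of delivery genes below. For *Ctsd* they were *Mfge8*, *4930458D05Rik* and *Arhgdia* (r = 0.96 each), for *Ctsl* they included *Aig1* and *Plcl2* (r = 0.97 and 0.96), for *Ctsk* *Sema4d* and *Myof* (r = 0.94 and 0.93), and for *Ctsc* they were *Sqor*, *Birc3* and *Acpp* (r = 0.93, 0.92 and 0.91). *Ctsb* was nearest to *Idh2*, *Tmeff1* and *Fuca2* (r = 0.94, 0.93 and 0.93), *Ctsf* to *Hps4*, *Ift74* and *1190005I06Rik* (r = 0.91, 0.87 and 0.87) and *Ctsh* to *Mpc2*, *Ddrgk1* and *Gm45716* (r = 0.80, 0.80 and 0.78).

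Genes that act with the cathepsins were higher in liver-*Flcn*-/- livers more often than lower. Among 10 cathepsin partners, 6 were higher by the mean genotype effect and none lower, with a median log2 fold change of 0.52, beside the 8.36% of all genes called higher. They include *Tpp1* (tripeptidyl peptidase 1, 0.83), *Dpp7* (dipeptidyl peptidase 7, 1.45) and *Neu1* (0.62), while *Glb1*, which with *Neu1* forms the complex that cathepsin A stabilizes, had no called genotype effect and fell with MCD in both genotypes (-1.17 and -1.34). *Lgmn*, the legumain that cleaves several cathepsin precursors, rose with MCD in Cre mice (0.91) and had no called genotype effect.

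Among 15 genes of lysosomal delivery, 8 were higher and none lower for genotype (8.36% and 6.15% of all genes), led by *Cln6*. Its mean level on chow was 3.07 CPM in Cre and 35.5 CPM in liver-*Flcn*-/- mice, and on MCD it was 23.3 and 91.2 CPM. The mannose 6-phosphate receptor genes *M6pr* and *Igf2r* had no called genotype effect (0.02 and -0.12), and *Igf2r* rose with MCD in both genotypes (1.00 and 0.58). *Sort1*, which encodes sortilin, fell with MCD in both (-0.66 and -0.53) and was higher for genotype (0.50). In Cre mice on chow it was at 22.8, 26.9 and 33.8 CPM in the 3 libraries of low uniquely mapped share and at 17.4, 11.7 and 10.5 CPM in the other 3, against 11.5 to 14.1 CPM in Cre mice on MCD, which the other 3 overlapped.

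The other lysosomal hydrolases gave a scale for the cathepsins. Of 31 such genes, 20 were higher and none lower for genotype (8.36% and 6.15% of all genes) with a median log2 fold change of 0.35. For diet 18 rose and 5 fell (32.7% and 31.6% of all genes) with a median of 0.25. The β-hexosaminidase subunit gene *Hexa* had the largest genotype effect among them (1.23), between those of *Ctsa* and *Ctsz*. Within groups, the hydrolases went with *Ctsa* (r = 0.64) and *Ctsz* (r = 0.66) and with *Ctsl* at r = -0.03 over the 22 libraries. The other cathepsins lay between, at r = 0.49 for *Ctsh*, 0.47 for *Ctsd*, 0.41 for *Ctsf*, 0.33 for *Ctss*, 0.30 for *Ctsb*, 0.14 for *Ctsc* and 0.08 for *Ctsk*. Of 10 *Flcn* and MiT-TFE genes, 5 were higher and 2 lower for genotype, and 5 rose and 1 fell for diet, against the same shares of all genes. *Rragd*, the Rag GTPase D gene, had the largest genotype effect (3.55), while the mRNA of *Tfeb* (-0.10) was not called and that of *Tfe3* (-0.23) was slightly lower.

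Of 12 cathepsin inhibitor genes 5 were tested. With MCD *Cstb* and *Ctla2a* rose and *Kng2* fell in Cre mice (29.3% and 28.2% of all genes), 1 rose and none fell in liver-*Flcn*-/- mice (22.5% each), and for genotype 1 was higher and none lower (8.36% and 6.15%). *Cstb*, the cytosolic stefin B, rose with MCD from 34.3 to 89.9 CPM in Cre mice and from 41.0 to 88.9 CPM in liver-*Flcn*-/- mice. *Cst3*, the secreted cystatin C, did not pass in either diet comparison (-0.04 and -0.20), and *Kng2*, a kininogen with cystatin-like parts, was higher for genotype (0.48). Of 14 further cathepsin-named or related genes, 4 were tested and 10 had at most 3 counts in every library, 8 of them 0 throughout, most of them members of the placental cluster. Among the 4, *Ctso* fell with MCD in both genotypes (-0.45 and -0.29). *Napsa*, an aspartic protease close to cathepsin D, rose with MCD in Cre mice (2.24) and had a called interaction of -1.97, from 0.57 to 2.79 CPM in Cre mice and from 0.91 to 1.09 CPM in liver-*Flcn*-/- mice.

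Some cathepsin genes overlap others on the opposite strand, and the sources used here do not say whether counting used the strand. *Ctsa* overlaps *Pltp* (102 and 63.1 CPM on chow, 34.7 and 27.3 CPM on MCD, Cre before liver-*Flcn*-/- mice), *Ctsb* overlaps *Fdft1* (195, 137, 110 and 70.3 CPM in the same order) and *Ctsz* overlaps *Nelfcd* (32.7, 28.3, 25.1 and 22.2 CPM). *Pltp*, *Fdft1* and *Nelfcd* each had the highest mean in Cre mice on chow and the lowest in liver-*Flcn*-/- mice on MCD, where the cathepsin had its lowest and its highest. *Neurl2*, which also overlaps *Ctsa*, was at 2.70, 2.33, 1.27 and 1.85 CPM in the same order. Whether overlap changed the cathepsin counts was not tested.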

How the data were processed

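Poly(A) libraries of 22 mouse livers were sequenced from 1 end. Reads were trimmed (Trimmomatic), mapped to the GRCm38 genome (STAR) and assigned to genes (HTSeq), and the authors deposited the resulting whole-number counts, without normalization, for 55573 genes. Library adapters carried molecular identifiers, and whether reads were collapsed on them is not given in the sources used here. The annotation release and the strand setting of the counting are not given in the sources used here, and 0 columns were left without a sample. The precision that depth gives covers counting error only. No 2 of the 50 pairs of libraries within a group were identical.

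Tests across genes used edgeR 4.0.16 under R 4.3.3 (mean count of at least 10, TMM, 1 fit of the 4 groups, two-sided quasi-likelihood tests, Benjamini-Hochberg adjustment over 14062 genes). Exact permutation tests (scipy 1.17.1, two-sided) used log2 CPM. Gene positions and exon lengths come from GENCODE M21. Correlations used log2 CPM with a prior count of 2. Alternatives were limma-voom (limma 3.58.1), DESeq2 1.42.0, RLE factors, 2 other filters, fits of only the groups compared, a replicate block, a sex covariate (from *Xist* and Y-linked counts), leaving out each mouse and leaving out 5 chow libraries with a uniquely mapped share under 75% in the library statistics of the study. A fit without these 5 and Cre MCD mouse 3 was added after seeing the data.

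All 10 cathepsins were tested in every comparison and each is described. For each other list, counts of calls and some members that passed or were abundant are given, and for each cathepsin the 3 genes most correlated with it, of which some are not reported here. The members, the lists and the 75% limit were chosen with earlier results of these data known. One listed hepatocyte marker (*Tf*) was not matched in the table.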

Additional observations from a re-analysis of the deposited data

Results flagged for a closer look

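The diet effect on *Ctss* differed between the genotypes, by an interaction of -1.09 on the log2 scale (edgeR adjusted p = 0.0303), as 1 of 10 cathepsins tested, a share near that of all genes (8.83%). Over 31 alternatives its adjusted p ranged from 0.00763 to 0.221, and it missed the threshold in 10.

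Among 40 combinations of a cathepsin and a group, 2 held a mouse far from the rest by Dixon's criterion, which chance alone gives in about 1 group of 20. *Ctsc* in liver-*Flcn*-/- MCD mouse 1 was at 113 CPM, against 56.2 to 72.3 CPM in the other 5 mice. *Ctsd* in Cre chow mouse 4 was at 313 CPM, against 213 to 247.5 CPM in the other 5.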

How the results depend on the processing

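The calls of *Ctsa*, *Ctsb*, *Ctsf*, *Ctsl* and *Ctsz* for the mean genotype effect, and of *Ctsa*, *Ctsb*, *Ctsc*, *Ctsd*, *Ctsk*, *Ctsl*, *Ctss* and *Ctsz* for the mean diet effect, held in each alternative in which they were fitted, and *Ctsk* was not part of the fit of genes with at least 10 counts in every library. Without a low count filter, with at least 10 counts in every library and with the replicate block, the cathepsins lower in liver-*Flcn*-/- livers by the mean effect went from 1 to 0, those with genotype alone from 2 to 1, those with neither effect from 0 to 1 and those lower with diet in Cre mice from 3 to 1, and without a filter those lower on chow went to 0. On MCD the cathepsins lower in liver-*Flcn*-/- mice were 2 under DESeq2 and without the 5 chow libraries, and 0 when only the groups compared were fitted and with the replicate block. The interaction had 1 positive call under DESeq2 (*Ctsh*) and 0 negative calls with the block, without the 5 chow libraries and without these and Cre MCD mouse 3. Leaving out 1 mouse at a time gave 1 to 3 cathepsins lower with diet in Cre mice, 1 to 2 lower on MCD, 0 to 1 with a positive and 0 to 1 with a negative interaction, 0 to 1 lower by the mean genotype effect, 1 to 2 with genotype alone and 0 to 1 with neither.

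Values that changed sign were small. *Ctsd* on MCD was -0.0031 with at least 10 counts in every library, -0.040 without the 5 chow libraries and Cre MCD mouse 3, and -0.054 to 0.075 without 1 mouse. *Ctsf* for diet in liver-*Flcn*-/- mice was 0.00023 with at least 10 counts in every library and -0.084 to 0.090 without 1 mouse, and *Ctsh* on MCD was -0.057 to 0.033. *Ctsk* on chow was -0.047 without the 5 chow libraries, also without Cre MCD mouse 3, and -0.037 to 0.53 without 1 mouse. The *Ctsz* interaction was 0.049 without the 5 chow libraries and -0.20 to 0.0028 without 1 mouse, its genotype minus diet effect was -0.00071 without these and Cre MCD mouse 3, and *Flcn* for diet in Cre mice was -0.26 to 0.012. The causes were not tested.

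Over all genes, calls for genotype on chow went from 1212 to 494 without the 5 chow libraries and 653 without these and Cre MCD mouse 3, those for the mean genotype effect from 2040 to 1334, and those for the interaction from 1242 to 779 without the 5 libraries and 552 with the replicate block. Leaving out 1 mouse gave 670 (liver-*Flcn*-/- chow mouse 4) to 1429 (Cre MCD mouse 3) calls for genotype on chow. For the interaction it gave 819 (Cre MCD mouse 1) to 1426 (Cre MCD mouse 3). The replicate number was not shown to pair mice. After removing group means, same-numbered mice correlated with a mean r of -0.08 (diets in Cre mice), -0.01 (diets in liver-*Flcn*-/- mice), 0.06 (genotypes on chow) and 0.13 (genotypes on MCD). Single pairs ranged from -0.55 to 0.47 for genotypes on chow and from 0.06 to 0.26, all positive, for genotypes on MCD. With the block *Ctss* was -0.72 on MCD (adjusted p = 0.0531). *Ctsk* had the fewest reads of the 10, and the cause of its wide intervals was not tested.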
